A study of Mus musculus with 12 samples.

Results

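The interferon response genes described here are 37 genes named as a list. A member counted as found where its symbol had at least 1 UMI (a unique molecular identifier, 1 captured RNA molecule) in the tables of 12 mouse mammary tumours. All 37 were found, of 24421 genes listed and 17650 genes with at least 1 UMI, and they were followed by cell type and by genotype, parity and growth pattern. The tumours came from MMTV-Cre/HER2 Crainbow mice of the FVBN strain, untreated. In these mice Cre driven by the mammary tumour virus promoter switches on a colour-coded form of the receptor HER2 in mammary epithelium. Every tumour, the comparison groups included, carried the transgene, and no normal gland was part of the design. Nulliparous animals gave 5 tumours labelled p95 HER2 (20, 17, 15, 16 and 17 weeks of age for tumours 1 to 5) and 3 labelled d16 HER2 (21, 17 and 16 weeks). Multiparous animals gave 4 tumours (17, 17, 16 and 16 weeks) whose HER2 form was labelled unknown, so parity and HER2 form cannot be told apart there. By growth pattern, the p95 tumours and d16 tumours 2 and 3 were metaplastic (7), d16 tumour 1 and multiparous tumours 2 and 4 were solid nodular (3), and multiparous tumours 1 and 3 were mixed (2). The titles give p95 tumour 2 and d16 tumour 2 the same number, and likewise p95 tumour 4 and d16 tumour 3. Whether these or the other tumours came from separate animals was not stated, so p-values measure only the spread between these samples.

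Interferons are secreted when nucleic acid sensors meet viral or misplaced cellular DNA or RNA, and activated T and NK cells secrete interferon gamma. Type I interferons signal through IFNAR1 and IFNAR2 to a factor made of STAT proteins and IRF9, which binds the interferon-stimulated response element. Interferon gamma signals through IFNGR1 and IFNGR2 to sites called GAS elements. In tumours, the response genes serve as readouts of this signalling in cancer cells and in infiltrating immune cells. By role the 37 members are 3 nucleic acid sensors (Ifih1, Ddx58 and Zbp1), 4 transcription factors (Stat2, Irf9, Irf7 and Irf1), 21 antiviral effectors, 1 feedback gene (Usp18, which removes ISG15 from proteins and dampens receptor signalling) and 8 GTPases of the guanylate-binding and immunity-related families. In GENCODE M21 (GRCm38) the members lie on 14 chromosomes. Runs of neighbours lie on chromosome 3 (Gbp5, Gbp7, Gbp3 and Gbp2), chromosome 5 (Oasl2 beside Oasl1, and Oas2, Oas3 and Oas1a) and chromosome 19 (Ifit2, Ifit3 and Ifit1). These neighbours belong to shared gene families. How the authors' counting treated any reads that match several of them is not given in the sources used here.

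Most of the members with a promoter sequence at hand held a response element core near their start sites. RefSeq promoter windows (GRCm38.p6, 250 bases before to 50 after the start) were found for 27 of the 37 members. The core GAAANNGAAA, searched on both strands (TTTCNNTTTC on the other), stood in a window of 17 of these 27 members (63.0%) and of 1079 of all 27025 genes with a window (3.99%). At least 2 matches stood in 7 members (25.9%) and in 0.266% of these genes. A GAS core, TTCNNNGAA, which reads the same on both strands, stood in 8 members (29.6%) and in 9.55% of these genes. The windows below are shown because these genes carry the differences between cell types and tumours described next. Capitals mark a single match per gene, and further matches that overlap it in Isg15, Bst2 and Gbp3 are not marked. Each sequence follows the gene's strand, and offsets count the first base of the match from the start site, which is 0. A match describes letters in a window and is not a measured binding site.
Isg15 (chr4:156200881-156200890, minus strand, offset -72): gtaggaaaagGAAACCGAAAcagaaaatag
Bst2 (chr8:71537587-71537596, minus strand, offset -124): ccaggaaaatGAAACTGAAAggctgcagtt
Rsad2 (chr12:26456563-26456572, minus strand, offset -120): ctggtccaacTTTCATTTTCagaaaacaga
Ifit1 (chr19:34640785-34640794, plus strand, offset -104): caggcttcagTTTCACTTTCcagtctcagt
Gbp2 (chr3:142620604-142620613, plus strand, offset -59): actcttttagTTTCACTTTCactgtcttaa
Gbp3 (chr3:142559999-142560008, plus strand, offset -45): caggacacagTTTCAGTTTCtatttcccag
Gbp7 (chr3:142530283-142530292, plus strand, offset -53): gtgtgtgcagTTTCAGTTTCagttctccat
Igtp (chr11:58199522-58199531, plus strand, offset -34): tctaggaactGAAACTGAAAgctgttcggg
Of the members with a window, 6 of 6 GTPases, 2 of 2 sensors, 8 of 15 effectors and 1 of 4 transcription factors held the core. The windows of Oasl1, Oasl2, Irf7, Irf1, Irf9, Ifi35 and Ifi44, which also recur below, did not hold the response element core. Ifi27l2a, Iigp1, Usp18 and Rtp4 were among the members without a window.

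The data were UMI counts from single cells captured on a ddSEQ instrument. Of 8486 barcodes, 7366 had at least 200 detected genes and were kept, with 104893 (p95 tumour 1) to 4394398 UMIs (d16 tumour 3) per tumour and a median of 449 to 4536 UMIs per cell. At most 3 barcodes were shared by 2 tumours. The members together had 18658 of 24689207 UMIs, from 2218 for Ifi27l2a, 1274 for Gbp2 and 1244 for Irf1 down to 47 for Oas3 and 44 for Gbp5. Cells were grouped without using the members or 76 other interferon genes, and classes were named from markers. They held 3428 epithelial-like cells (46.5%), 1332 fibroblast-like, 868 macrophage-like, 448 T or NK-like, 321 dendritic-like, 314 neutrophil-like, 154 pericyte-like and 110 endothelial-like cells. Another 391 cells were left unnamed. One of the 9 epithelial-like clusters was led by the ribosomal RNA gene Rn45s and had a median of 568 UMIs per cell. It took 278 of its 650 cells from d16 tumour 2 and had Ifi27l2a among its 10 leading genes, so results in epithelial-like cells were also computed without it. Predicted doublets (278 cells) stayed in, and free RNA was not removed.

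Summed over the 37 members, macrophage-like and T or NK-like cells gave the largest share of their UMIs to interferon response genes. The summed level, in member UMIs per 10000 UMIs of a class in a tumour with at least 20 such cells, was 18.0 ± 11.2 in macrophage-like cells (SD, n = 12 tumours, 6.58 to 46.0) and 16.0 ± 4.24 in T or NK-like cells (n = 6, 10.9 to 23.7). Neutrophil-like cells stood at 11.7 ± 2.01 (n = 6), dendritic-like cells at 8.34 ± 2.37 (n = 6), epithelial-like cells at 7.31 ± 5.11 (n = 12, 1.19 to 15.5) and fibroblast-like cells at 5.97 ± 2.27 (n = 10, 3.40 to 8.88). The ranges of macrophage-like, T or NK-like and epithelial-like cells overlapped, and the order of neighbouring classes was within their spread between tumours. The make-up of the sums differed by role: in macrophage-like cells the antiviral effectors gave 13.5 per 10000 and the GTPases 1.72, whereas in T or NK-like cells the effectors gave 6.14 and the GTPases 6.83.

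**Figure D1:**
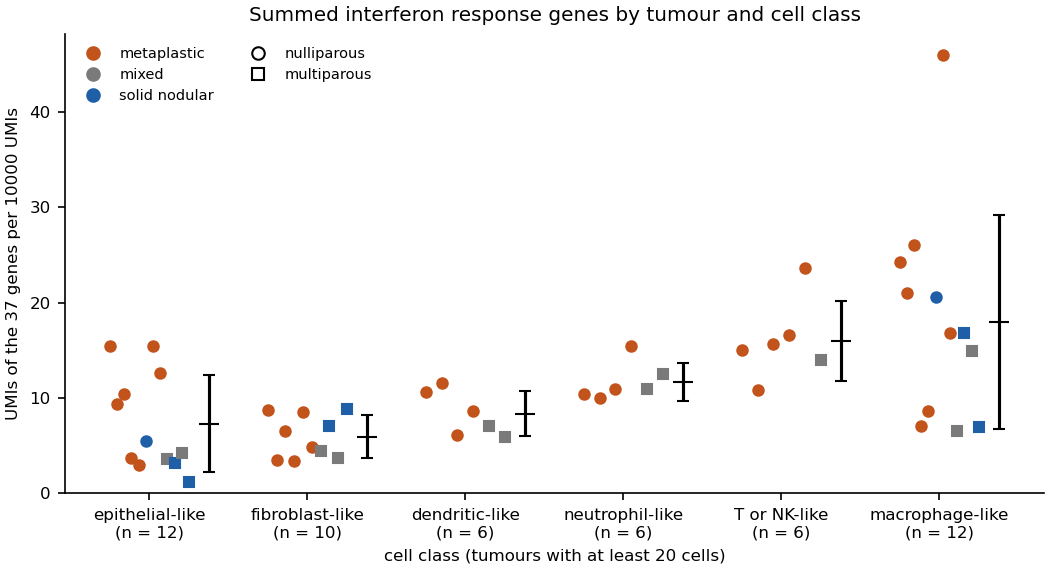
Summed level of the 37 members (UMIs per 10000 UMIs, vertical axis) for each tumour with at least 20 cells of a class, by cell class (horizontal axis), with points for tumours, coloured by growth pattern and with squares for multiparous tumours, and bars for mean and SD. Macrophage-like cells range from 6.58 to 46.0 and overlap with T or NK-like cells at 10.9 to 23.7 and epithelial-like cells at 1.19 to 15.5.

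Classes were compared with epithelial-like cells of the same tumours on UMI sums by the quasi-likelihood test of edgeR with the tumour as a block and Benjamini-Hochberg adjustment over all genes tested. The classes were made from the other genes of the same cells, so these tests size a difference against the spread between tumours and do not test whether the classes exist. With the usual filter on low counts, 3 members could be tested in macrophage-like cells and 1 passed, against 24.8% of all genes called higher and 37.7% lower. That gene was Ifi27l2a, an interferon-inducible protein of mitochondria and nuclear membrane, which stood higher in 12 of 12 tumours. It was at 323 ± 144 CPM (UMIs scaled to 1e6 per class and tumour, n = 12) in macrophage-like and 65.4 ± 109 CPM in epithelial-like cells, a log2 difference of 3.56 ± 0.56 (SE, edgeR adjusted p = 0.0001). Dendritic-like cells passed in 3 of 7 members, all higher (18.9% of all genes higher, 23.5% lower): Ifi27l2a at 3.43, Oasl1 at 2.94 and Stat2 at 1.19 on the log2 scale. Neutrophil-like cells passed in 3 of 7, all higher (13% of all genes higher, 27.2% lower): Oasl2 at 2.90, Isg15 at 2.19 and Irf1 at 1.25. T or NK-like cells passed in 4 of 13 (16.3% of all genes higher, 23.9% lower), with Gbp7 at 3.63, Gbp3 at 2.84 and Igtp at 2.00 higher and Iigp1 at -1.66 lower. Fibroblast-like cells passed in 2 of 15, both lower (28.7% of all genes lower, 26.7% higher), namely Irf1 at -0.67 and Ifi35 at -0.76.

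That filter left 3 to 15 members per class, so a wider test, chosen after seeing the data, kept every gene with at least 10 UMIs. In macrophage-like cells 16 of 37 members were then higher and 3 lower, against 14.4% of all genes higher and 35.5% lower. The median difference was 0.85 over members and -0.60 over all genes. The antiviral effectors led: Oasl1, an inhibitory relative of the oligoadenylate synthetases, was higher by 4.76 ± 0.30 (SE) in 12 of 12 tumours. Rsad2, the antiviral enzyme viperin, was higher by 3.65 ± 0.37 in 11 of 12, and Trim30a by 3.49 ± 0.48 in 10 of 12. The sensor Ifih1 (MDA5) was higher by 2.40 ± 0.42 and the ubiquitin-like modifier Isg15 by 1.83 ± 0.54, in 9 of 12 tumours. The others that were higher were Ifi27l2a, Gbp5, Ifit2, Mx1, Parp14, Gbp3, Gbp7, Ifit1, Mx2, Ifit3 and Oas1a, between 1.13 and 3.46, with Ifit3 closest to the threshold at an edgeR adjusted p of 0.049. Some of these sums rest on few cells. Rsad2 was seen in 65 of 868 macrophage-like cells, and its top 9 cells held 57.3% of its 314 UMIs. For Ifit1, Ifit2, Ifit3 and Mx2 the top 9 cells of each gene held 64.0 to 81.3%, and Gbp5 had 11 UMIs. Oasl1 and Ifi27l2a were spread more widely, with 26.0% and 16.0% in their top 9 cells. The 3 lower members were the immunity-related GTPases Iigp1 (-3.20 ± 0.45, lower in 12 of 12 tumours) and Igtp (-1.88) and the sensor Ddx58 (-1.02).

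Within single tumours the macrophage-like levels spanned a wide range. Oasl1 stood at 396, 492, 1086, 119 and 30.9 CPM in p95 tumours 1 to 5. It stood at 150, 1655 and 173 CPM in d16 tumours 1 to 3 and at 69.2, 162, 347 and 190 CPM in multiparous tumours 1 to 4. Rsad2 stood at 198, 208, 210, 7.41 and 15.4 CPM in the p95 tumours, at 451, 749 and 131 CPM in the d16 tumours and at 0, 42.8, 52.6 and 40.8 CPM in the multiparous tumours. For both genes d16 tumour 2 was highest and p95 tumours 4 and 5 lay below most d16 and multiparous tumours. Ifi27l2a varied less, with 149, 480, 561, 152 and 417 CPM in p95, 251, 496 and 346 CPM in d16 and 156, 319, 347 and 204 CPM in multiparous tumours, and its groups overlapped.

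T or NK-like cells differed from macrophage-like cells in which members were high. Under the wider test 7 of 37 members were higher than in epithelial-like cells and 6 lower (9.12% and 22.8% of all genes). Of the 7 higher ones 5 were GTPases: Gbp5 at 4.77 ± 0.86 (SE), Gbp7 at 3.36, Gbp3 at 2.60, Gbp4 at 2.03 and Igtp at 1.78. The other two were Trim30a at 2.84 and Ifi27l2a at 2.14. The lower members included Usp18 at -3.92, Isg15 at -2.49, Oasl2 at -1.88, Iigp1 at -1.86 and Irgm1 at -1.56. All T or NK-like cells together held 2 UMIs of Usp18, 4 of Isg15, 6 of Oasl2, 12 of Iigp1 and 13 of Irgm1. They held 19 UMIs of Gbp5, so the sizes for these genes are uncertain. Oas2 had 0 of 482640 UMIs in T or NK-like cells, which allows up to 6.22 CPM. Gbp proteins are GTPases that attack membranes of intracellular pathogens and are known targets of interferon gamma. In neutrophil-like cells 5 of 36 members were higher (6.15% of all genes). These were Oas3 at 2.53, Trim30a at 2.51, Oasl2 at 2.50, Gbp7 at 1.83 and Isg15 at 1.76. Irf7 was lower at -2.07 (23.5% of all genes lower). Neutrophil-like cells held 6 UMIs of Oas3, 8 of Gbp7, 10 of Trim30a and 3 of Irf7, so their sizes are uncertain. Dendritic-like cells had 3 higher (Ifi27l2a, Trim30a and Oasl1) and 10 lower members of 36 (12.5% and 24.1% of all genes). Fibroblast-like cells had 1 higher member, Trim30a at 2.14, and 6 lower of 37 (20.9% and 26.1%). Trim30a, a TRIM-family ubiquitin ligase, was thus higher than in epithelial-like cells in each of the 5 classes tested.

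**Figure D2:**
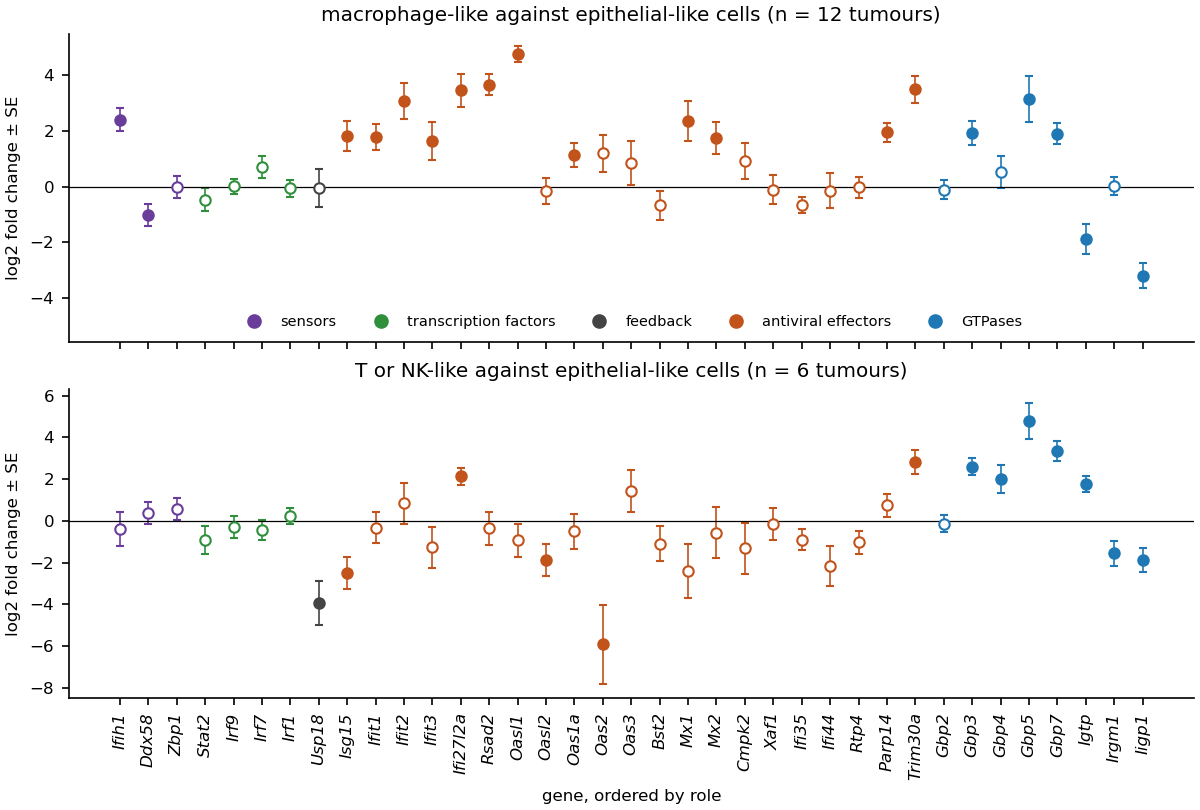
Log2 difference from epithelial-like cells of the same tumours with its SE (vertical axis) for each member, ordered and coloured by role (horizontal axis), in macrophage-like cells (upper panel, 12 tumours) and T or NK-like cells (lower panel, 6 tumours), from the edgeR test on genes with at least 10 UMIs, with filled points for an adjusted p under 0.05. Macrophage-like cells are high in effectors such as Oasl1 (4.76) and Rsad2 (3.65). T or NK-like cells are high in GTPases such as Gbp5 (4.77, on 19 UMIs in the class), and Iigp1 is low in both. The Oas2 point in the lower panel comes from 0 UMIs and has no interpretable size.

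Epithelial-like cells were not without the response. Iigp1, a GTPase that coats pathogen vacuoles, stood at 49.5 ± 52.3 CPM (SD, n = 12) in epithelial-like and 45.2 ± 46.6 CPM (n = 10) in fibroblast-like cells but at 3.40 ± 6.03 CPM (n = 12) in macrophage-like cells. Ifi35 stood at 49.9 ± 29.1 CPM in epithelial-like and 23.4 CPM in macrophage-like cells. Irf9, the DNA-binding part of the type I factor, stood at 34.0 ± 13.2 CPM in epithelial-like and 34.6 ± 19.0 CPM in macrophage-like cells, which do not differ beyond their spread. Irf1, a transcription factor that answers interferon gamma and other signals, was highest in neutrophil-like cells at 131 ± 118 CPM. It stood at 99.8 CPM in T or NK-like, 66.4 ± 54.4 CPM in epithelial-like and 26.2 CPM in fibroblast-like cells. Irf7, which amplifies type I interferon production, stood at 68.6 ± 94.1 CPM in macrophage-like and 37.5 ± 31.6 CPM in epithelial-like cells. Gbp2 stood at 83.3 CPM in T or NK-like, 48.4 ± 38.2 CPM in epithelial-like and 36.4 CPM in macrophage-like cells. The SD of several of these levels was as large as the mean, so their order between classes does not hold beyond the spread.

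Single cells differed in how many members they showed. UMIs of at least 5 members were seen in 225 of 3428 epithelial-like cells (6.56%), whose median depth was 5550 UMIs against 1786 in the rest. They were seen in 85 of 868 macrophage-like cells (9.79%) and in 20 of 448 T or NK-like cells (4.46%), with median depths of 2322 against 1784 and 1627 against 862 UMIs. The 225 epithelial-like cells held 55.9% of the member UMIs of their class and 13.2% of all its UMIs, a share raised in part by how they were picked. The top 34 epithelial-like cells of each gene held 61.3% of the UMIs of Isg15 and 62.3% of Igtp, but 21.0% of Irf9 and 20.2% of Ifi35. The part of such cells in the differences between tumour groups below was not tested.

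Since deeper cells can show more members, cells were also thinned to 1000 UMIs each, leaving out shallower cells. At that depth 775 of 2305 epithelial-like cells had a member UMI (33.6%, exact 95% interval 31.7 to 35.6%, with 1123 cells left out), against 53.0% of all epithelial-like cells unthinned. The share was 57.1% in macrophage-like cells (53.3 to 61.0%, unthinned 71.9%) and 71.7% in T or NK-like cells (64.6 to 78.1%, unthinned 61.2%). The median T or NK-like cell had 882.5 UMIs, so most cells of that class were left out and its share describes the deeper ones. Thinned to 500 UMIs, the shares were 40.9% in macrophage-like and 42.0% in T or NK-like cells, so their order depends on the depth. Fibroblast-like cells stood at 29.4% (unthinned 59.8%). These intervals cover counting error only. The share of such cells that free RNA gives was not measured. At least 5 members were seen in 41 of 2305 thinned epithelial-like cells (1.78%), with up to 21 members in a cell. These cells came from several tumours, among them 14 of 410 cells in d16 tumour 2, 9 of 192 in p95 tumour 3 and 6 of 198 in p95 tumour 2. In contrast, multiparous tumour 2 had 0 of 494, which allows a share of up to 0.607% (3 counts of the total).

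Macrophage-like cells fell into 2 clusters that were made without the members. The smaller had the higher summed level in every tumour that had both, mostly through a few members. The smaller cluster held 104 cells and was led by Ccl8, Cd209f, F13a1 and Retnla, with Folr2 and Cd163, genes of tissue-resident macrophages. It had 56.2 member UMIs per 10000. The larger, with 764 cells led by Apoe and the complement genes C1qa, C1qb and C1qc, had 14.2. Within tumours the ratio was 1.61 to 7.73, with a median of 4.12, in 10 of 10 tumours. The levels were 184 against 32.5 per 10000 in d16 tumour 2 and 119 against 16.0 in p95 tumour 2. By gene, Oasl1 stood at 1865 against 237 CPM, Ifi27l2a at 1249 against 255, Rsad2 at 798 against 102, Ifih1 at 364 against 43.7 and Isg15 at 235 against 43.1 CPM. Of the smaller cluster's 958 member UMIs, Oasl1 gave 318, Ifi27l2a 213, Rsad2 136 and Ifih1 62. Gbp3 (11.7 against 73.0 CPM), Ifi35 (5.87 against 29.3), Mx2, Stat2 and Zbp1 were lower there, on 1 or 2 UMIs each. Gbp2 was level at 41.1 against 41.4 CPM. Oas3, Gbp4, Gbp5, Xaf1, Ifi44 and Iigp1 had 0 UMIs in the smaller cluster. The smaller cluster had 3 to 18 cells per tumour, and other genes that follow interferon may have helped to set it apart, so these values are a description with no test. The mix of the clusters differed between tumours. The smaller and the larger had 18 and 15 cells in p95 tumour 3, 13 and 103 in d16 tumour 2 and 5 and 219 in d16 tumour 3. No cell of p95 tumour 1 or d16 tumour 1 was in the smaller one. The part of this mix in the macrophage-like levels and group comparisons was not tested.

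**Figure D3:**
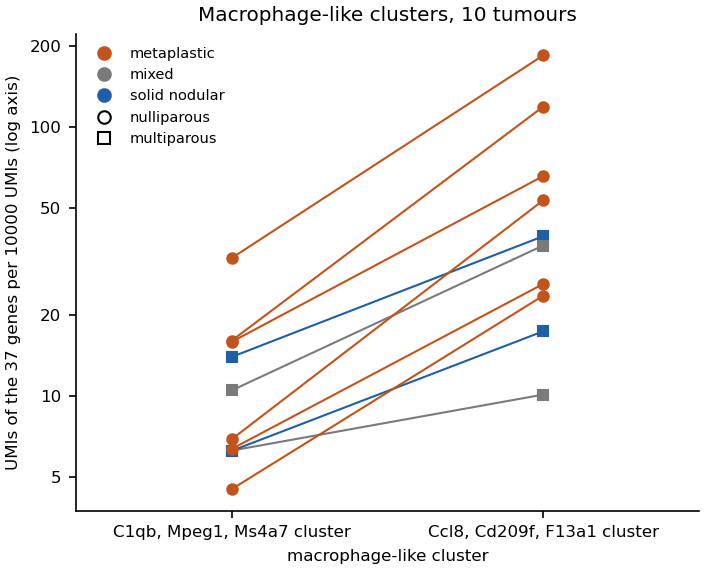
Summed member level (UMIs per 10000 UMIs, vertical log axis) in the larger and the smaller macrophage-like cluster (horizontal axis), with a line joining the values of each of the 10 tumours that had both, coloured by growth pattern and with squares for multiparous tumours. Every line goes up from the larger to the smaller cluster, by 1.61 to 7.73 times.

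Interferon transcripts themselves were rare. Ifnb1, the type I interferon beta, had 106 UMIs in 33 cells of 8 tumours. Macrophage-like cells held 54 of these UMIs in 17 of 868 cells (1.96%), with 35 UMIs from d16 tumour 2 and 12 from p95 tumour 2. Epithelial-like cells held 40 UMIs in 12 of 3428 cells (0.35%). One cell had 21 UMIs, and the macrophage-like cells with Ifnb1 had a median of 53.8 member UMIs per 10000. Of these cells 8 came from d16 tumour 2, whose macrophage-like level was the highest at 46.0, and 5 from p95 tumour 2. The part of the tumour in this median was not tested. Ifng, the gene of interferon gamma, had 24 UMIs in 16 cells, of which 15 were T or NK-like cells (3.35% of 448) and 1 was fibroblast-like, while 0 of 3428 epithelial-like cells had a UMI of it, which allows up to 0.0875% of cells. Ifnl3 had 6 UMIs, Ifnk 3 and Ifnl2 1, while Ifna1, Ifna2, Ifna4, Ifna5 and Ifne had 0 in 7366 cells, which allows up to 0.0407% of cells with a UMI of each.

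Receptor genes followed a class pattern of their own. In macrophage-like cells the 5 receptor subunits tested stood higher than in epithelial-like cells, with log2 differences of 2.75 for Il10rb, 2.46 for Ifnar1, 1.85 for Ifngr1, 1.82 for Ifnar2 and 1.81 for Ifngr2, each in 12 of 12 tumours and past the edgeR threshold (24.8% of all genes called higher). In T or NK-like cells Ifngr1 stood at 1634 CPM against 66.4 CPM, a log2 difference of 4.60 ± 0.29 (SE), and Ifnar1 was higher by 1.12 (edgeR adjusted p = 0.033), while Ifngr2 at -0.78 did not pass (16.3% of all genes called higher). Ifnlr1, the specific receptor of interferon lambda, had 104 of its 118 UMIs (88.1%) in epithelial-like cells.

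Between d16 and p95 tumours the question is how 2 forms of HER2 differ in nulliparous animals. The summed level was higher in d16 tumours by less than the SD between tumours, and no member passed the test. Whole tumours are all kept cells summed, where fewer cells of a type and less RNA per cell cannot be told apart. The summed level there was 6.93, 18.1 and 11.1 per 10000 in d16 tumours 1 to 3 and 16.7, 11.6, 8.69, 5.24 and 4.31 in p95 tumours 1 to 5. The d16 values lay among the p95 ones apart from d16 tumour 2, which was highest, with 12.0 ± 5.64 (SD, n = 3) against 9.31 ± 5.04 (n = 5). Of 34 members tested 5 had a log2 fold change below 0 (52% of all genes) and 29 above. The median was 0.53 against -0.02 over all genes. The 12 tables came in 2 layouts, and among those of 1 layout (p95 tumours 3 to 5 and d16 tumour 3) the median was 0.87. It was 0.26 without d16 tumour 2 and 0.25 without p95 tumour 5. By edgeR's quasi-likelihood test 0 members passed (0% of all genes), 3 were higher at an unadjusted p under 0.05 (2.69% of all genes) and DESeq2 called 0. Irf9 was at 0.74 ± 0.32 (SE), Irgm1 at 0.85 ± 0.44, Gbp3 at 0.77 ± 0.44, Rtp4 at 0.75 ± 0.49 and Rsad2 at 1.46 ± 0.996, all with an edgeR adjusted p of 0.94.

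Within classes the members also had medians above 0, and these moved with single tumours. In epithelial-like cells the summed level was 5.52, 15.4 and 12.7 in d16 and 15.5, 9.37, 10.4, 3.67 and 3.01 in p95 tumours, and the groups overlapped. The median log2 fold change of 27 members tested was 0.53 (0.00 over all genes, 0.97 within the layout), with 4 below 0 (49.9% of all genes). The median was 0.23 without d16 tumour 2 or 3, 0.24 without p95 tumour 5 and 0.32 without p95 tumour 4. There 0 were called (0% of all genes), at an unadjusted p under 0.05 and with DESeq2 as well. Ifi27l2a was at 1.60 ± 0.86 (SE) there and at -0.48 without d16 tumour 2. In macrophage-like cells 8 of 8 members tested lay higher, with a median of 0.80 (-0.03 over all genes, 1.02 within the layout), and 0 passed (0% of all genes), with 0 also at an unadjusted p under 0.05 (2.13%) and with DESeq2. The median was 0.06 without d16 tumour 2, 0.52 without p95 tumour 4 and 1.35 without d16 tumour 3. Rsad2 was at 2.15 ± 1.12, and Oasl1 at 0.92 turned to -1.26 and Ifih1 at 1.06 to -0.64 without d16 tumour 2. Of 76 other interferon pathway genes, 57 could be tested in whole tumours, where 37 lay higher in d16 and 20 lower (52% of all genes lower). By edgeR 0 of them were called, and at an unadjusted p under 0.05 0 were higher (2.69% of all genes) and 1 was lower (1.5%).

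The comparison of multiparous with nulliparous tumours asks how tumours of animals that had borne litters differ. The unknown HER2 form of the multiparous tumours is a limit. No multiparous tumour was metaplastic and every nulliparous one except d16 tumour 1 was. Parity can therefore hardly be told apart from growth pattern either. The lowest median UMIs per cell (449 to 1196) were those of p95 tumours 1 and 2 and d16 tumours 1 and 2, all nulliparous. Members lay lower in multiparous tumours in whole tumours, epithelial-like and macrophage-like cells, but not in fibroblast-like cells, and none passed the edgeR test. The summed level in whole tumours was 4.74, 4.47, 4.98 and 3.64 per 10000 in multiparous tumours, 4.46 ± 0.58 (SD, n = 4), and 10.3 ± 5.06 (n = 8, lowest 4.31, highest 18.1) in nulliparous tumours. Each multiparous tumour lay below 7 of the 8 nulliparous ones, and p95 tumour 5, at 4.31, lay inside the multiparous range. Of 33 members tested 32 had a log2 fold change below 0 (47.4% of all genes), with a median of -1.25 against 0.02 over all genes. Among the 8 tables of the layout that holds every multiparous tumour the median was -0.62. Of the members tested, 0 passed (0.0801% of all genes called), 17 were lower at an unadjusted p under 0.05 (4.86% of all genes) and DESeq2 called 4, namely Isg15, Irf7, Rtp4 and Ifi27l2a (1.4% of all genes).

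Over all 37 members, tested or not, the mean CPM was lower in multiparous tumours for 36 (49.7% of all genes), the exception being Ddx58. By role, 18 of 18 tested effectors, 7 of 7 GTPases, 4 of 4 transcription factors, 2 of 3 sensors and Usp18 lay lower. Isg15 stood at 143, 34.5, 55.4, 14.4 and 12.7 CPM in p95, 27.0, 51.6 and 52.3 CPM in d16 and 12.5, 5.44, 11.6 and 12.9 CPM in multiparous whole tumours. In 3 multiparous tumours Isg15 lay below every nulliparous one, and multiparous tumour 4 lay between p95 tumours 5 and 4. The log2 fold change was -2.04 ± 0.54 (SE, edgeR adjusted p = 0.25). Irf7 stood at 105, 51.3, 44.8, 17.3 and 17.5 CPM in p95, 13.5, 95.5 and 50.5 CPM in d16 and 15.4, 11.4, 13.9 and 12.9 CPM in multiparous tumours. There d16 tumour 1 lay inside the multiparous range (log2 fold change -1.81 ± 0.50, adjusted p = 0.29). Rtp4, a chaperone of membrane receptors, was at -1.57 ± 0.44 (0.29), Ifi27l2a at -1.83 ± 0.55 (0.33) and Igtp at -1.51 ± 0.51 (0.41). In the same sums the T or NK markers were at 6.19 to 36.5 CPM in multiparous and 15.3 to 582 CPM in nulliparous tumours. The macrophage markers (10 of 10 lower) were at 1494 to 3721 and 1409 to 15864 CPM. Macrophage-like cells were 7.06 ± 3.14% of multiparous and 13.4 ± 4.93% of nulliparous cells, and T or NK-like cells were 1.74 ± 1.40% and 7.42 ± 5.24% (SD). The part of these shares in the whole-tumour values was not tested, but the values within epithelial-like cells follow.

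In epithelial-like cells the members also lay lower in multiparous tumours, although different clusters held most of the class in different tumours. A cluster led by Slc6a15 and Krt23 held 210 of the 241 epithelial-like cells of multiparous tumour 4, and took 4 cells from all other tumours. It had the lowest summed level of the 9 epithelial-like clusters, at 1.23 per 10000. A cluster led by Comp and Gpx2, at 5.03 per 10000, held 309 of the 494 epithelial-like cells of multiparous tumour 2. The summed level was 3.63, 3.16, 4.27 and 1.19 per 10000 (3.06 ± 1.33, SD, n = 4), against 9.44 ± 4.98 (n = 8, 3.01 to 15.5) in nulliparous tumours, where p95 tumours 4 and 5 overlapped with the multiparous ones. Over all 37 members the mean CPM was lower in multiparous tumours for 36 (49.2% of all genes), the exception being Gbp7. The 24 members tested all had a log2 fold change below 0 (48.3% of all genes). Their median was -1.61 against 0.01 over all genes and -1.42 within the layout. Of these, 0 passed (0.0339% of all genes called), 16 were lower at an unadjusted p under 0.05 (3.16% of all genes), and DESeq2 called Ifi27l2a and Ifi44 (0.204% of all genes). Ifi27l2a stood at 93.8, 92.2, 52.6, 20.2 and 23.3 CPM in p95, 66.4, 394 and 25.5 CPM in d16 and 10.02, 5.03, 1.51 and 0 CPM in multiparous tumours. It was the 1 member whose groups did not overlap (0.26% of all genes), with a log2 fold change of -4.33 ± 1.04 (SE, edgeR adjusted p = 0.74). Igtp, an immunity-related GTPase, was at 31.3, 35.03, 55.5, 11.7 and 4.36 CPM in p95, 15.3, 47.4 and 73.0 CPM in d16 and 6.37, 5.66, 12.1 and 0 CPM in multiparous tumours, and overlapped through p95 tumours 4 and 5 (-2.59 ± 0.74, adjusted p = 0.81). Without the Rn45s-led cluster the Ifi27l2a value was -3.94 and the median of the members -1.59. Oasl2 at -2.02 ± 0.65, Iigp1 at -2.34 ± 0.79 and Isg15 at -2.72 ± 0.93 each had an adjusted p of 0.85. The epithelial-like sums held 0 UMIs of the T or NK markers in the 4 multiparous tumours against 0.957 to 62.5 CPM in nulliparous ones. Macrophage markers were at 110 to 303 against 131 to 746 CPM. The part of these cells' RNA in the result was not tested.

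**Figure D4:**
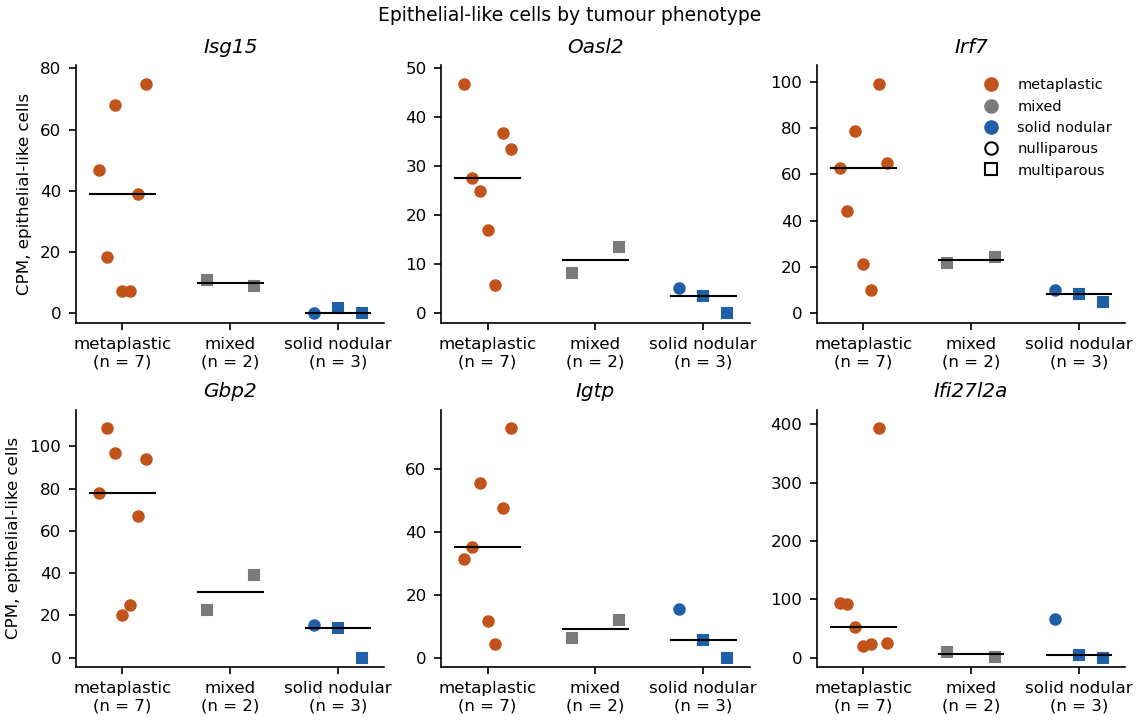
Level in epithelial-like cells (CPM, vertical axes) of 6 members in each of the 12 tumours, by growth pattern (horizontal axes), with squares for multiparous and circles for nulliparous tumours and lines for medians. Solid nodular tumours are lowest for Isg15 (0 to 1.89 CPM), and for Ifi27l2a the squares lie at 0 to 10.02 CPM and the circles at 20.2 to 394 CPM.

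In fibroblast-like cells the 2 groups were level. Their summed level was 6.002 ± 2.40 (SD, n = 4) in multiparous and 5.94 ± 2.41 (n = 6) in nulliparous tumours. Of 15 members tested 8 lay lower with a median of -0.13 (-0.02 over all genes, 0.14 within the layout), and 0 passed (0.0305% of all genes), with 1 lower (4.51% of all genes) and 1 higher (3.9%) at an unadjusted p under 0.05 and 0 with DESeq2. Parp14, an ADP-ribosyltransferase, was at 1.21 ± 0.39 (SE, edgeR adjusted p = 0.37) and Rtp4 at -1.11 ± 0.51 (0.58). In macrophage-like cells the summed level was 11.3 ± 5.34 (n = 4) against 21.3 ± 12.1 (n = 8). Of the members, 5 of 6 tested lay lower with a median of -1.45 (0.01 over all genes, -0.46 within the layout), 0 of which passed (0% of all genes), with 0 also at an unadjusted p under 0.05 (8.34%) and with DESeq2. Rsad2 was at -2.69 ± 1.27 (adjusted p = 0.63) and Ifi27l2a at -0.56 ± 0.35 (0.73). The difference in the parity effect between macrophage-like and epithelial-like cells could be tested for 3 members and passed for none (0% of all genes). For Ifi27l2a it was 3.18 ± 0.85 (macrophage-like minus epithelial-like, edgeR unadjusted p = 0.0021, a level that 5.25% of all genes passed at 0.05, adjusted p = 0.62). The difference between fibroblast-like and epithelial-like cells was not tested. Of the 76 other pathway genes 44 of 55 tested lay lower in whole multiparous tumours, with 0 called by edgeR. At an unadjusted p under 0.05 17 were lower (4.86% of all genes) and 1 higher. In epithelial-like cells 36 of 42 lay lower, with 0 called and 11 lower at an unadjusted p under 0.05 (3.16% of all genes).

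The comparison of solid nodular with metaplastic tumours asks how the members follow growth pattern, and 2 of the 3 solid nodular tumours are multiparous while all metaplastic tumours are nulliparous. Every member tested lay lower in solid nodular tumours in whole tumours and within epithelial-like cells, as did 8 of 10 in macrophage-like cells, and none passed the edgeR test. Fibroblast-like cells, which were not fitted for growth pattern, stood at 7.04 and 8.88 per 10000 in multiparous tumours 2 and 4 and at 3.40 to 8.79 in 6 metaplastic tumours. In whole tumours 34 of 34 members tested lay lower (51.1% of all genes), with a median of -1.34 against -0.02 over all genes (-1.01 within the layout), 0 passed (0% of all genes), 16 were lower at an unadjusted p under 0.05 (11.3% of all genes) and DESeq2 called 6 (4.99% of all genes). One member passed by edgeR without d16 tumour 2. Over all 37 members the mean CPM was lower for 36 (50.1% of all genes), the exception being Irf9. In 8 members every solid nodular tumour lay below every metaplastic one on TMM-scaled levels (3.73% of all genes): Irf7, Oasl2, Oas2, Bst2, Gbp2, Gbp4, Ifi44 and Trim30a. Of these d16 tumour 1, with 222220 UMIs, held 5 UMIs of Gbp2, 3 of Irf7, 2 of Oasl2, 1 each of Oas2 and Trim30a and 0 of the others. Its levels are therefore not well resolved. On plain CPM Oas2 overlapped, at 4.50 CPM in d16 tumour 1 and 4.34 CPM in p95 tumour 3. Gbp4 had 0 UMIs in all 3 solid nodular tumours. Gbp2 was at -1.81 ± 0.43 (SE, edgeR adjusted p = 0.084), Oasl2 at -1.57 ± 0.41 (0.11), Irf7 at -2.11 ± 0.58 (0.11), Igtp at -2.12 ± 0.63 (0.13) and Zbp1, a sensor of unusual nucleic acid helices, at -1.24 ± 0.42 (0.16). The smallest adjusted p of a member was 0.061, for Bst2, the membrane tether tetherin.

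In epithelial-like cells the median difference of the members was larger than in whole tumours. The summed level was 5.52, 3.16 and 1.19 per 10000 in d16 tumour 1 and multiparous tumours 2 and 4 (3.29 ± 2.17, SD, n = 3). It was 9.998 ± 5.10 (n = 7, 3.01 to 15.5) in metaplastic and 3.95 ± 0.45 (n = 2) in mixed tumours, so p95 tumours 4 and 5 overlapped with the solid nodular ones. The 27 members tested all lay lower (48.7% of all genes). Their median was -1.97 against 0.02 over all genes (-1.92 within the layout and -2.04 without the Rn45s-led cluster). Over all 37 members, tested or not, the mean CPM was lower for 36 (47.0% of all genes), the exception being Gbp7. Within clusters of the class, counted in tumours with at least 20 cells of the cluster, values could be set side by side. In the cluster led by the milk genes Csn1s2a and Csn2, d16 tumour 1 and multiparous tumour 2 stood at 2.61 and 4.09 per 10000 and 4 metaplastic tumours at 7.55 to 14.2. In the Comp-led cluster these same 2 tumours stood at 3.79 and 2.48, and d16 tumours 2 and 3 at 13.9 and 3.08. In the Rn45s-led cluster d16 tumour 1 stood at 6.37 and 3 metaplastic tumours at 10.5 to 22.5. In a cluster led by Hspb1 it stood at 6.81, inside the range of 6 metaplastic tumours (3.04 to 21.4). In the Slc6a15-led cluster only multiparous tumour 4 had enough cells. The basal markers in the epithelial-like sums were at 332 to 1669 CPM in solid nodular and 1120 to 38885 CPM in metaplastic tumours (8 of 8 lower), and the part of the clusters and of basal cells in the result was not tested. The members tested were 3 sensors, 4 transcription factors, 13 effectors, Usp18 and 6 GTPases. By edgeR 0 members passed (0.11% of all genes called), 16 were lower at an unadjusted p under 0.05 (10.1% of all genes), and DESeq2 called 10, among them Isg15, Irf7, Oasl2, Usp18 and Gbp2 (4.66% of all genes). With 1 tumour left out, 2 members passed without d16 tumour 2, 1 without p95 tumour 4, 1 without p95 tumour 5 and 0 otherwise, and the median was -3.18 without multiparous tumour 2.

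In 6 members the groups did not overlap on TMM-scaled levels (3.16% of all genes), namely Ifi44, Bst2, Oasl2, Isg15, Irf7 and Gbp2. Isg15 stood at 0, 1.89 and 0 CPM in the solid nodular tumours. In the metaplastic ones it stood at 46.9, 18.4, 68.0, 7.45 and 7.27 CPM in p95 and 38.9 and 75.0 CPM in d16 tumours 2 and 3, a log2 fold change of -4.71 ± 1.07 (SE, edgeR adjusted p = 0.092). Irf7 stood at 10.2, 8.18 and 4.97 CPM against 62.5, 44.2, 78.5, 21.3, 10.2, 99.1 and 65.0 CPM (-2.90 ± 0.68, adjusted p = 0.096), so that on plain CPM d16 tumour 1 and p95 tumour 5 were level. Gbp2 stood at 15.3, 13.8 and 0 CPM against 78.1, 109, 96.7, 20.2, 24.7, 67.3 and 93.8 CPM (-2.88 ± 0.79, adjusted p = 0.13). For these genes p95 tumours 4 and 5 were the lowest metaplastic tumours, and apart from Irf7 in p95 tumour 5 they lay above the solid nodular ones on plain CPM.

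Oasl2 was at 5.11, 3.46 and 0 CPM against 46.9, 27.7, 24.9, 17.0, 5.82, 36.8 and 33.5 CPM (-3.21 ± 0.71, adjusted p = 0.079), and Usp18 at -4.07 ± 1.09 (0.12) overlapped through p95 tumour 4. Bst2 and Ifi44 each had an adjusted p of 0.061, with Bst2 at 0, 0.629 and 0 CPM against 1.45 to 21.4 CPM. A level of 3 UMIs corresponded to 15.3 CPM in d16 tumour 1, 0.944 in multiparous tumour 2 and 4.97 in multiparous tumour 4, so values of 0 in d16 tumour 1 are not well resolved. The T or NK markers in these sums were at 0 to 10.2 CPM in solid nodular and 0.957 to 62.5 CPM in metaplastic tumours (8 of 8 lower), and the macrophage markers stood at 110 to 746 and 131 to 714 CPM (5 of 10 lower). Their part in the result was not tested. Macrophage-like cells stood at 14.8 ± 7.04 (SD, n = 3) against 21.4 ± 13.1 (n = 7) per 10000. Of 10 members tested 8 lay lower, with a median of -0.46 (-0.02 over all genes, -0.38 within the layout, 0.03 without multiparous tumour 4) and 0 passed (0.114% of all genes), with 0 also at an unadjusted p under 0.05 (8.51%) and with DESeq2. Of the other pathway genes 50 of 58 lay lower in whole solid nodular tumours, with 0 called by edgeR. At an unadjusted p under 0.05 20 were lower (11.3% of all genes) and 1 higher. In epithelial-like cells 36 of 44 lay lower, with 0 called and 16 lower (10.1% of all genes) and 1 higher at an unadjusted p under 0.05. The smallest adjusted p there was 0.058 for Socs3, a feedback inhibitor (-2.11), and 0.062 for Lgals3bp (-2.12).

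**Figure D5:**
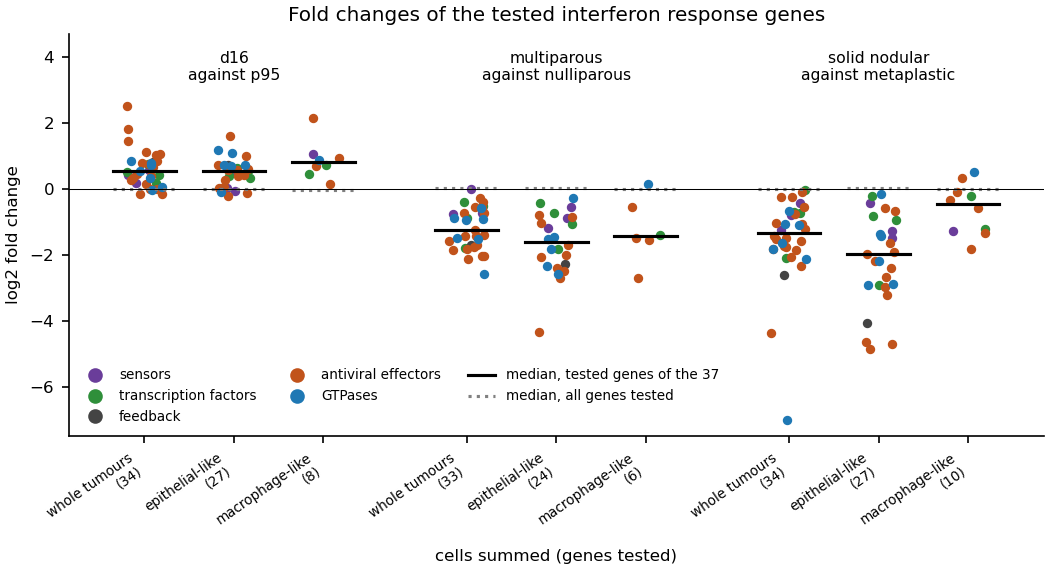
Log2 fold change of the members that could be tested (vertical axis) in each comparison, for whole tumours and 2 cell classes (horizontal axis, number tested in brackets), with points coloured by role, solid lines for their median and dotted lines for the median of all genes tested. The epithelial-like medians are -1.61 for parity and -1.97 for growth pattern, and the lowest point, Gbp4 in whole tumours, comes from a group with 0 UMIs and has no interpretable size.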

How the data were processed

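The authors deposited 1 table of raw UMI counts per gene and cell for each tumour, and several libraries of a tumour were joined, per the labels' descriptions. Seurat 3.0.2 and the build GRCm38 are named in the submitters' processing notes. The aligner, counting, annotation and cell calling are not given in the sources used here. Of 8486 barcodes, 7366 with at least 200 detected genes were kept. In 8 of the 12 tables, names of 27 genes had become dates and were mapped back, which makes the 2 table layouts. The tables list 0 mitochondrial genes. No 2 tables were alike within sampling noise (smallest chi-square over its degrees of freedom 4.20).

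Cells were clustered with scanpy 1.11.5 (2000 variable genes, 30 components, 15 neighbours, Leiden resolution 1) after 113 interferon genes were kept out, and named from marker lists. Doublets were predicted (3.77%) and kept. Counts were summed per tumour and class with at least 20 cells and tested with edgeR 4.0.16 (quasi-likelihood, filterByExpr, TMM, Benjamini-Hochberg threshold 0.05). Levels printed as CPM are UMIs scaled to 1e6 UMIs of a class and tumour. Alternatives were DESeq2 1.42.0, limma 3.58.1 (voom, unblocked or blocked by title number), other filters, depths, clusterings and covariates, and leaving out each tumour. The filter of 10 UMIs and the removal of the Rn45s-led cluster were chosen after seeing the data. The fits were tested on simulated counts. Intervals are exact 95% intervals, and limits on a count of 0 use 3 counts. Both cover counting error only.

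Named genes are, per fit, the members with an adjusted p under 0.05, or where fewer than 5, these and the 5 with the smallest p at an average log2 CPM of at least 4, and for levels by class the 10 members with the most UMIs. Further names in counts of 10 or fewer, and those of the figures, were chosen after their values were seen. The members and lists were chosen with earlier results of these data known. GENCODE M21 gave positions. The phenotype comparison left out the 2 mixed tumours, and the genotype comparison the 4 multiparous ones.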

Additional observations from a re-analysis of the deposited data

Results flagged for a closer look

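In 15 of 164 sets of 4 to 10 tumours (9.15%), 1 tumour stood apart from its group in the level of a named member. The groups overlap, so that a value can count in several sets, and some levels rest on few UMIs. The share is therefore not set against a chance rate. In whole tumours p95 tumour 1 stood apart for Isg15 at 143 CPM, in the nulliparous and the metaplastic group, with the nearest tumour at 55.4 CPM. It also stood apart for Irf9 at 57.2 CPM in the p95 group (nearest 28.0). Multiparous tumour 4 stood apart in its group for Rsad2 at 23.7 CPM (nearest 6.90).

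In epithelial-like cells d16 tumour 2 stood apart for Ifi27l2a at 394 CPM in the nulliparous and metaplastic groups (nearest 93.8). In fibroblast-like cells p95 tumour 2 stood apart in the p95 group, low for Ddx58 at 7.09 CPM (nearest 19.8) and high for Isg15 at 42.5 CPM (nearest 18.0).

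In macrophage-like cells p95 tumour 3 stood apart for Ifih1 at 350.3 CPM in the p95 group (nearest 65.2). Of its macrophage-like cells 18 were in the smaller cluster and 15 in the larger, and the part of this mix was not tested. For Irf7, p95 tumour 1 stood apart at 347 CPM in the p95, nulliparous and metaplastic groups (nearest 82.3 in p95 and 87.3 in the others), and for Isg15 at 545 CPM in the p95 and metaplastic groups (nearest 77.1 and 138). These rest on 7 UMIs of Irf7 and 11 of Isg15 among 20190 UMIs of 28 cells. For Rsad2, d16 tumour 2 stood apart at 749 CPM among metaplastic tumours (nearest 210.2).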

How the results depend on the processing

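The median log2 fold change of the members kept its sign in every alternative for parity in whole tumours (-1.44 to -0.62, 23 of 23) and epithelial-like cells (-1.86 to -1.32, 26 of 26), for growth pattern in whole tumours (-1.55 to -1.01, 21 of 21) and epithelial-like cells (-3.18 to -1.72, 24 of 24) for d16 against p95 in whole tumours (0.25 to 0.87, 19 of 19), epithelial-like cells (0.23 to 0.97, 22 of 22) and macrophage-like cells (0.06 to 1.35, 21 of 21) and for parity in macrophage-like cells (-1.75 to -0.40, 25 of 25). It turned for growth pattern in macrophage-like cells (-0.93 to 0.03, 22 of 23 kept it) and for parity in fibroblast-like cells (-0.39 to 0.28, 16 of 22). Members called by edgeR were 0 in each group comparison, and other settings gave calls. DESeq2 called 4 for parity and 6 for growth pattern in whole tumours, against 2 and 10 in epithelial-like cells. The layout of the tables as a covariate gave 5 for growth pattern in whole tumours. In epithelial-like cells it gave 2 for growth pattern, where no filter on low counts gave 1 and removal of the Rn45s-led cluster gave 1. Without a filter 3 were called for d16 against p95 in macrophage-like cells. The causes were not tested.

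Directions reversed for d16 against p95 when only tables of the date-like layout were used or when d16 tumour 2 was left out: Ifi27l2a in epithelial-like cells (-0.40 and -0.48), and in macrophage-like cells Irf1 (-0.0070 and -0.13), Ifih1 (-0.51 and -0.64) and Oasl1 (-0.84 and -1.26). For growth pattern in macrophage-like cells Ifih1 turned to 0.12 with limma voom, with and without the block, and Gbp3 to -0.87 without multiparous tumour 2. With 1 tumour left out at a time these values reached at most 2.12 for Ifi27l2a, 1.30 for Irf1, 1.73 for Ifih1 and 1.66 for Oasl1 in d16 against p95, and 0.96 for Gbp3.

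Calls between classes changed with the settings. At 500 detected genes per cell 5 members were called in macrophage-like, 2 in T or NK-like and 1 in fibroblast-like cells. At Leiden resolution 2, 5 were called in macrophage-like and 5 in dendritic-like cells. With interferon genes allowed for clustering 4 were called in macrophage-like cells, and with doublets removed 2 in T or NK-like cells. With the filter of 10 UMIs the calls were 19 in macrophage-like, 13 in T or NK-like, 13 in dendritic-like (median -0.75), 7 in fibroblast-like and 6 in neutrophil-like cells. At 500 UMIs per cell, the share of cells with a member UMI was 40.9% in macrophage-like, 42.0% in T or NK-like, 27.4% in dendritic-like, 18.9% in fibroblast-like and 21.2% in pericyte-like cells.

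Leaving out 1 tumour at a time gave 0 to 1 calls for growth pattern in whole tumours. For epithelial-like cells it gave 0 to 2 (median -3.18 to -1.72). Between classes it gave 1 to 5 calls in macrophage-like cells (median 0.46 to 1.88), 1 to 3 in fibroblast-like and 1 to 3 in neutrophil-like cells. The macrophage-like calls were 4 without p95 tumour 1, 5 without d16 tumour 1 and 2 without p95 tumour 3 or 5.

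Title numbers are shared by only 2 pairs of tumours (p95 2 with d16 2, and p95 4 with d16 3), whose deviations from the group means correlated at 0.29 and 0.21, against -0.39 to 0.45 for other pairs. Each pair also has 1 age and 1 growth pattern, and the labels do not say what a shared number means, so it was not taken as a pairing. With the number as a replicate block limma voom gave medians of 0.87 for d16 against p95 and -0.76 for parity in whole tumours, against 0.83 and -0.80 without the block, and 0 calls with either.

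Depth limits the reading of p95 tumour 1 and d16 tumour 1, where 3 UMIs in epithelial-like cells correspond to 46.9 and 15.3 CPM.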
